A study of Homo sapiens with 8 samples.

Results

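The 33 genes described here encode enzymes that build, salvage and balance the precursors of RNA and DNA, and they were read from RNA-seq of MV4-11 cells. They were taken by symbol from a list of purine, pyrimidine and deoxynucleotide synthesis genes. The rule uses no measured value, but the list was written with earlier results of these data known. All 33 were found among the 26364 gene symbols of the deposited table. All 33 had at least 1 TPM (a transcript level scaled by gene length and to the same total in every library) in at least 2 libraries, and so all were among the 14151 genes tested. MV4-11 is a human acute myeloid leukemia (AML) cell line that carries FLT3-ITD and MLL-AF4, so every library is of 1 line with these alleles. The 4 groups held 2 libraries each. They were cells given DMSO, the vehicle; TCP at 5 µM, an inhibitor of the histone demethylase LSD1; palbociclib at 0.5 µM, an inhibitor of the cell cycle kinases CDK4 and CDK6; or palbociclib and TCP together, the combination. The labels give 4 days for every group, whereas the study's methods describe a start with the CDK6 inhibitor alone before TCP was added. Nothing states that the 2 libraries of a group came from separate cultures, so p-values measure the spread between these libraries, which may be technical.

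Cells make purines by building the ring step by step on phosphoribosyl pyrophosphate (PRPP), up to inosine monophosphate (IMP), from which AMP and GMP branch. Pyrimidines are made as a ring that is then joined to PRPP. Ribonucleotide reductase turns ribonucleotides into deoxynucleotides, thymidylate synthase makes thymidylate for DNA, and salvage enzymes recover bases and nucleosides. Many of these enzymes are known to be most abundant in dividing cells, several are targets of leukemia drugs, and SAMHD1, which degrades deoxynucleoside triphosphates, is known to be abundant in mature myeloid cells.

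Upstream sequences are shown for 4 of the genes, all of which held a match to a site described below. RefSeq promoters (GRCh38.p14) from 250 bases before to 50 bases after the start were matched for 30 of the 33 members, and only the bases before the start are printed, 5′ to 3′ on the gene's strand. Searches covered both strands for an E2F site, taken as TTTCCCGC, TTTCGCGC, TTTGCCGC or TTTGGCGC, and for the E-box CACGTG, and capitals mark each match. E2F factors are the best known effectors downstream of CDK4 and CDK6, and the E-box is the site of the MYC family. DUT (chr15:48331947-48332196, plus strand) held 2 E2F matches, TYMS (chr18:657403-657652, plus strand) and PRPS2 (chrX:12791162-12791411, plus strand) held 1 each, and PPAT (chr4:56435616-56435865, minus strand) held an E-box.
DUT: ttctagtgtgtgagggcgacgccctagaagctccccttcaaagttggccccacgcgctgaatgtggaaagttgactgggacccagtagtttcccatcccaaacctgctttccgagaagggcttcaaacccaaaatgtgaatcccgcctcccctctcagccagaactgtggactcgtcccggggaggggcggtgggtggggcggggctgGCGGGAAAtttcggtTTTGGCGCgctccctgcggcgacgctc
TYMS: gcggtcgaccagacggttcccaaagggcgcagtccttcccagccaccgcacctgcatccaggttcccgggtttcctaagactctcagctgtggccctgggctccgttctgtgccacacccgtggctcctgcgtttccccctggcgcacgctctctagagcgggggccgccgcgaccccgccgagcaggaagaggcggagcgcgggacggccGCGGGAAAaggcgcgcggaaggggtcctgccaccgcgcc
PRPS2: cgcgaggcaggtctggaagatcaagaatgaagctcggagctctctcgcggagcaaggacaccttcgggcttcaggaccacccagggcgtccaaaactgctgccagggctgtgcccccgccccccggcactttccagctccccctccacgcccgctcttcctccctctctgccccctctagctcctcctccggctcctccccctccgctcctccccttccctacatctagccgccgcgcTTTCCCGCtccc
PPAT: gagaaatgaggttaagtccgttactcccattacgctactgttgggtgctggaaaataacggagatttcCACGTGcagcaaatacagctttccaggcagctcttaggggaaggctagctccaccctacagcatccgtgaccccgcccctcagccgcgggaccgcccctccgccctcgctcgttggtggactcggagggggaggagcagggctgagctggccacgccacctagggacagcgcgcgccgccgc
In all, 5 members held an E2F match (PRPS2, GART, DCK, TYMS and DUT), 16.7% of the 30 against 3.31% of the 35116 promoters of the same length in the table. The E-box was also in 5 members (PPAT, ATIC, DHODH, DCK and NME1), 16.7% against 7.26% of all promoters. RRM1, RRM2 and TK1 held neither set of letters in this window. Nor did PAICS, CAD and PFAS, whose log2 fold changes with palbociclib, given below, were -1.35, -1.25 and -1.23. The promoters of the table were not limited to the genes tested or matched for base composition, and the difference in shares was not tested. The matches describe sequence only, and no binding was measured here.

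The libraries of a group correlated at 0.983 to 0.991 over genes on the log2 scale. The 10 most abundant genes took 9.12% to 9.67% of all TPM in the DMSO and TCP libraries and 14.0% to 15.8% in the palbociclib and combination libraries. TPM share a fixed total. The median gene was lower by 0.16 on the log2 scale with palbociclib and by 0.22 with the combination, and changes of members are to be read against these shifts. AML and myeloid genes (SPI1, CD33, FLT3, HOXA9, MEIS1, PTPRC) were present in every library, while CD34 was at or near 0 and KIT and MPO were low. The study grew its cell lines on HS-5 stromal cells, and 12 stromal genes summed to between 12.6 and 30.3 TPM in 7 libraries, mostly TAGLN, with POSTN at 0 in all 8. Palbociclib replicate 2 stood apart at 80.9 TPM, with COL1A1 at 22.2 TPM. Without that library, fewer members and a smaller share of all genes passed with palbociclib, as was also so without either DMSO library. The members that no longer passed are named with the counts below. Over the members the log2 fold change moved by at most 0.20 (PRPS1).

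Together the 33 genes held 0.471% and 0.510% of all TPM in the DMSO libraries, 0.464% and 0.520% in the TCP libraries, 0.338% and 0.328% in the palbociclib libraries and 0.313% and 0.321% in the combination libraries. The DMSO and TCP shares overlapped, and both groups with palbociclib lay below them. In DMSO the level per length ranged from 9.66 TPM for CTPS2 to 646 TPM for IMPDH2 (means of 2 libraries), with a median of 114 TPM over the members. The plot of levels by gene shows each library.

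**Figure D1:**
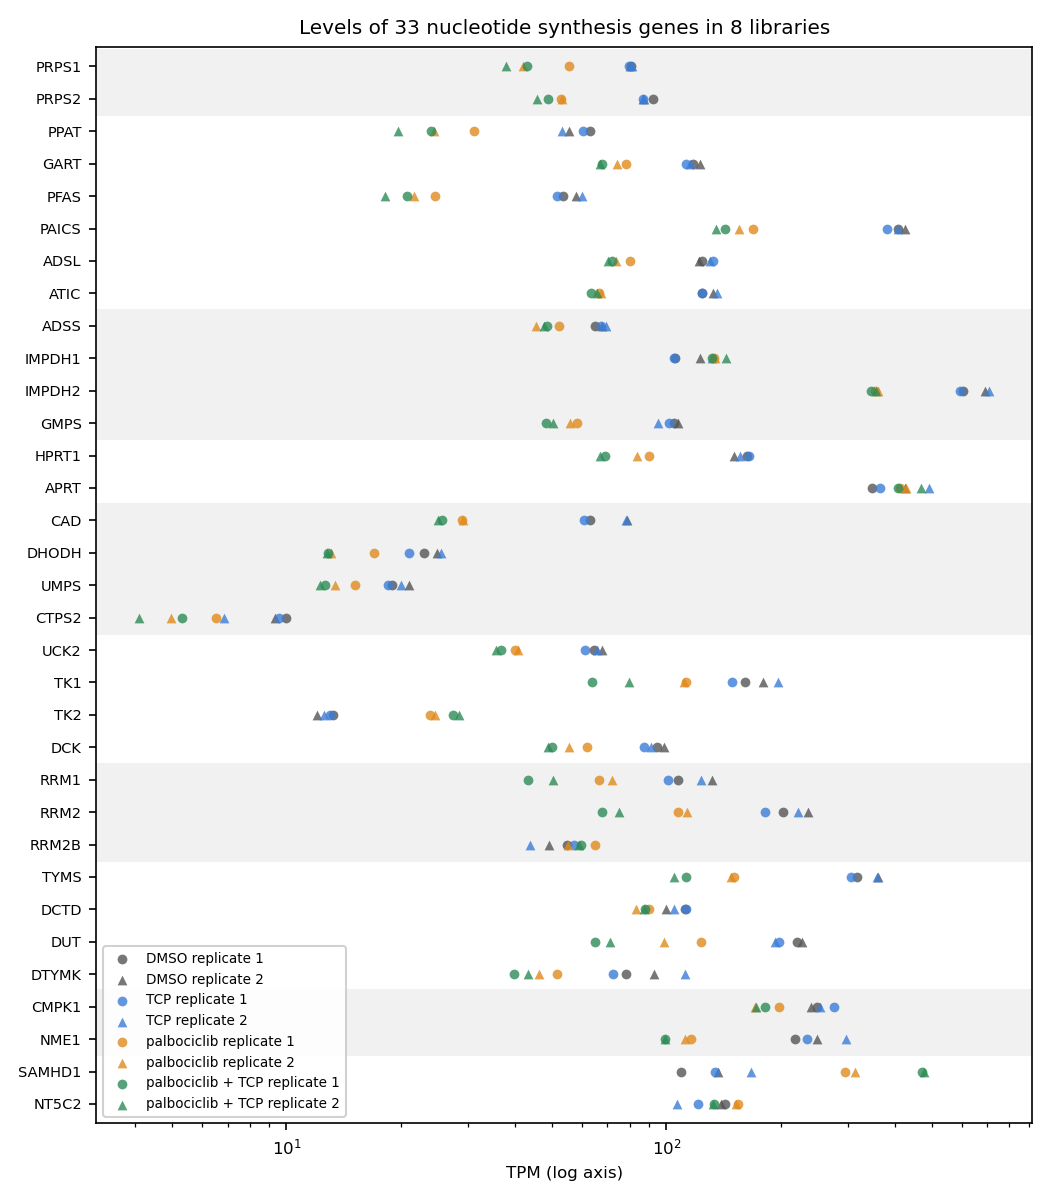
Level of each of the 33 genes in each of the 8 libraries, in TPM on a log axis, with genes grouped by role in shaded blocks; circles are replicate 1 and triangles replicate 2. The palbociclib and combination points lie mostly to the left of the DMSO points, and TK2 and SAMHD1 show the largest shifts to the right. Among all genes tested, 62.1% with palbociclib and 64.9% with the combination had a log2 fold change below 0.

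Against DMSO, 27 of the 33 genes fell with palbociclib and 2 rose, TK2 and SAMHD1, at an adjusted p below 0.05 in limma with Benjamini-Hochberg adjustment over all genes tested. Among all genes, 30.2% fell and 14.8% rose by the same rule. The median log2 fold change of the members was -0.71, against -0.16 for all genes tested. By a stricter rule (DEG, a log2 fold change of 1 or more in size with an adjusted p below 0.01), 7 members were lower (PPAT, PFAS, PAICS, CAD, TYMS, DUT and NME1) and 1 was higher (SAMHD1), where 4.56% and 4.54% of all genes were. The DEG counts depended on the scaling, with 4 lower and 2 higher after quantile normalization and 3 lower and 2 higher after median-ratio scaling, and 5 were lower without DMSO replicate 2 or palbociclib replicate 2. Without palbociclib replicate 2 the median was -0.63 for the members and -0.15 for all genes tested. A smaller share of all genes passed in that fit, and DHODH, UMPS, CTPS2, TK1, DCTD, DTYMK and CMPK1 no longer passed. The part of stromal RNA in these values was not tested. Calls also rested on other libraries. DHODH, UMPS, CTPS2, TK1 and DTYMK did not pass without DMSO replicate 2 (adjusted p = 0.0619 to 0.0904), CTPS2, DCTD and CMPK1 without DMSO replicate 1 (0.0569 to 0.177), TK1 and DCTD without palbociclib replicate 1 (0.0623 and 0.0557), and DCTD without either combination library (0.060 and 0.0599).

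With the combination the count was again 27 that fell and 2 that rose, TK2 and SAMHD1 (limma, the same rule). Among all genes 37.6% fell and 15.9% rose. The members' median was -0.91 against -0.22 for all genes. Here 13 members were DEG with a lower level and 2 with a higher level, where 7.82% and 5.87% of all genes were, and 9 and 2 after median-ratio scaling. DCTD did not pass without DMSO replicate 1 or either combination library (adjusted p = 0.113 to 0.191), and CTPS2 did not pass without combination replicate 2 (0.0511). Since the comparisons with DMSO share the 2 DMSO libraries, their values are given side by side and not as independent results.

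TCP alone called no member in either direction (limma), where 0.141% of all genes fell and 0.29% rose. The members' median was -0.027 against -0.044 for all genes. An unadjusted p under 0.05 (limma) was reached by 8.77% of all genes and by 3.03% of the members, only NT5C2, a nucleotidase. NT5C2 was at 143 and 139 TPM in DMSO and 121 and 107 TPM in TCP. Its log2 fold change was -0.31 (SE 0.08, limma, adjusted p = 0.246). Among the other members TCP values ranged from -0.22 for CTPS2 to 0.29 for SAMHD1.

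**Figure D2:**
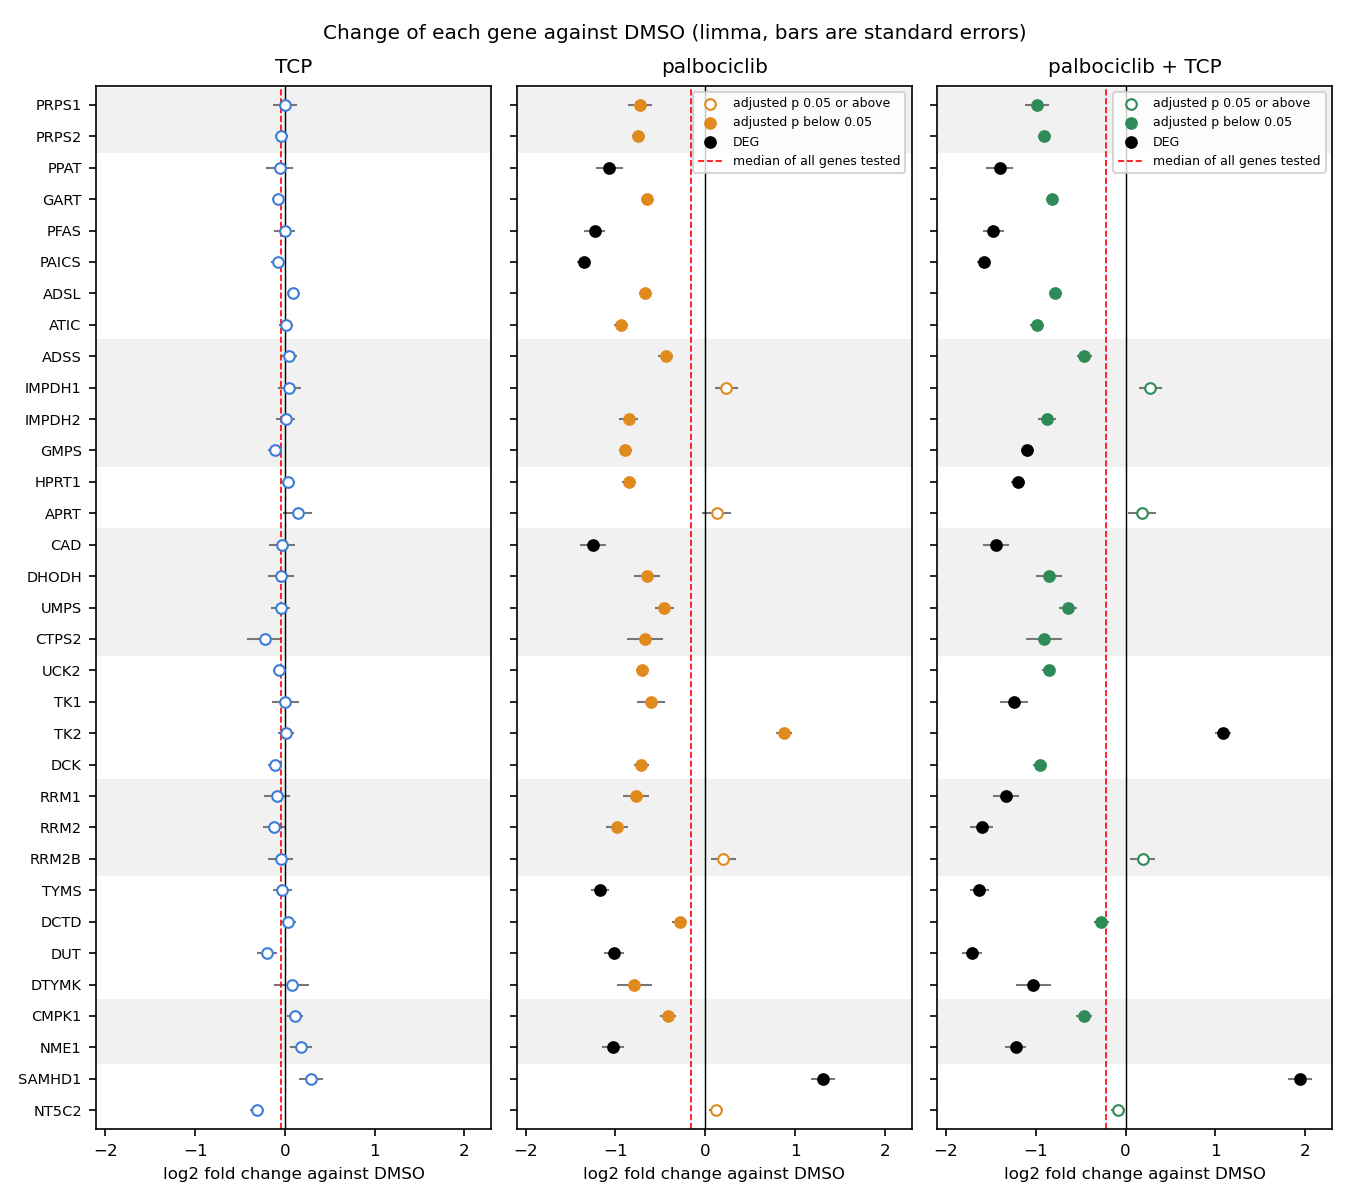
Log2 fold change of each of the 33 genes against DMSO for TCP, palbociclib and the combination, from limma on log2(TPM + 1), with standard errors as bars; open points had an adjusted p of 0.05 or above, coloured points below it, and black points were DEG. The dashed red line is the median of all genes tested, at -0.044, -0.16 and -0.22. Points for TCP lie near 0, and 27 genes lie to the left of the dashed line with palbociclib and with the combination.

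The same data against all genes show how far into the lower range the members lay. With palbociclib 27 of 33 had a log2 fold change below the median gene, and with the combination 27. With TCP the count was 14.

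**Figure D3:**
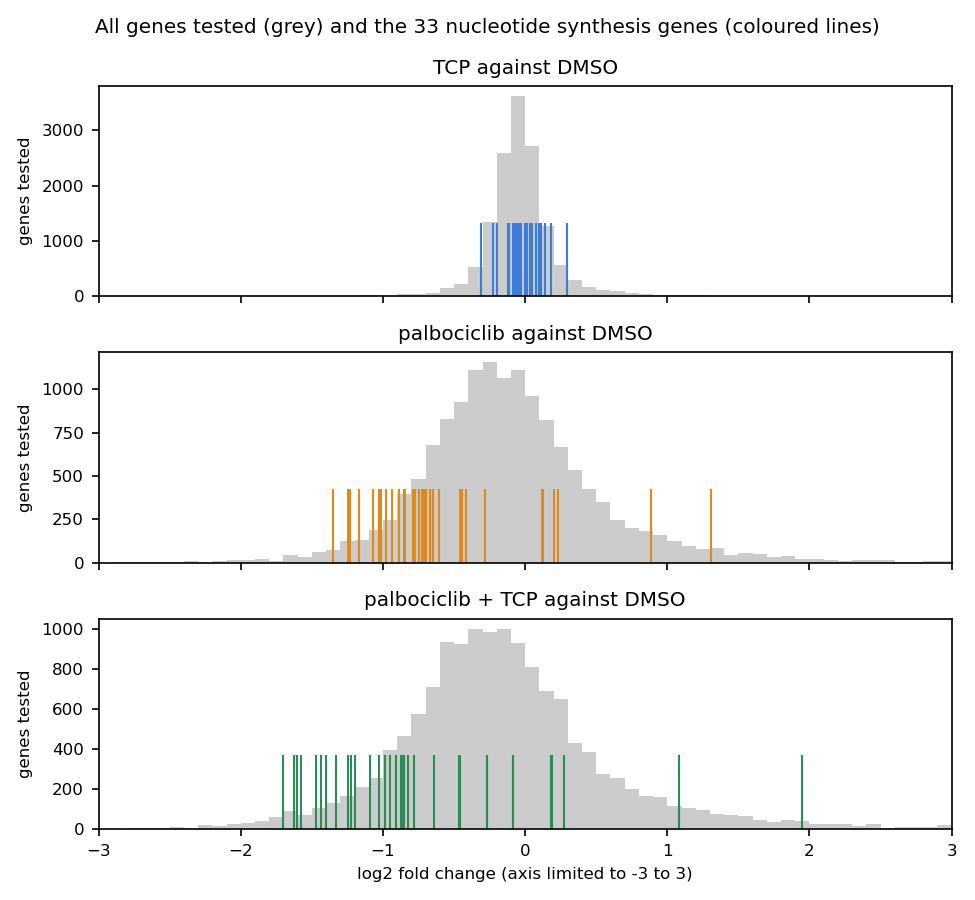
Histograms of the log2 fold change of all 14151 genes tested for each treatment against DMSO, in bins of 0.1 and limited to -3 to 3, with a coloured line for each of the 33 genes. The lines are spread around the centre for TCP, and lie mostly left of the centre for palbociclib and the combination, with TK2 and SAMHD1 at the right.

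PRPP supply comes first in the pathway. PRPS1 and PRPS2 encode the synthetases that make PRPP. PRPS1 was at 80.9 and 80.3 TPM in DMSO, 79.9 and 81.2 in TCP, 55.4 and 42.0 in palbociclib and 42.9 and 37.8 in the combination. The palbociclib and combination values overlapped each other and lay under all DMSO and TCP values. PRPS1 fell, with log2 fold changes of -0.73 (SE 0.13, limma, adjusted p = 0.00467) with palbociclib and -0.98 (SE 0.13, adjusted p = 0.000978) with the combination. PRPS2 fell, with log2 fold changes of -0.75 and -0.91 (SE 0.07 each), and the ratio of PRPS1 to PRPS2 TPM stayed between 0.790 and 1.05 over the 8 libraries.

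Between PRPP and IMP act the products of 6 genes, and all 6 fell with palbociclib and with the combination, with log2 fold changes from -1.35 to -0.65 and from -1.57 to -0.78. PPAT catalyses the committed first step. It was at 62.8 and 55.5 TPM in DMSO, 60.5 and 53.2 in TCP, 31.3 and 24.5 in palbociclib and 23.9 and 19.7 in the combination. No value with palbociclib reached any value without it. PPAT fell, with log2 fold changes of -1.07 (SE 0.15, limma, adjusted p = 0.00171) with palbociclib and -1.40 (SE 0.15, adjusted p = 0.000377) with the combination. PAICS, a bifunctional enzyme of the middle steps, was the most abundant of the 6, at 408 and 425 TPM in DMSO, 381 and 407 in TCP, 169 and 156 in palbociclib and 143 and 135 in the combination. The 2 groups with palbociclib lay far below the others, at 39.0% and 33.4% of the DMSO mean. Its log2 fold changes were -1.35 (SE 0.08, limma, adjusted p = 7.9e-05) and -1.57 (SE 0.08, adjusted p = 2.76e-05). PPAT and PAICS lie head to head on chromosome 4 (GRCh37, chr4:57259528-57301781 on the minus strand and chr4:57301907-57330744 on the plus strand), with 126 bases between the gene starts of that annotation. The RefSeq starts behind the printed sequences, in GRCh38, are 645 bases apart.

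PFAS, which acts between activities of GART, was at 53.4 and 57.9 TPM in DMSO, 51.6 and 59.8 in TCP, 24.7 and 21.6 in palbociclib and 20.7 and 18.2 in the combination. The combination values lay below the palbociclib values without overlap, and both below the rest. PFAS fell, with log2 fold changes of -1.23 (SE 0.12, limma, adjusted p = 0.000393) and -1.47 (SE 0.12, adjusted p = 0.00012) against DMSO. The trifunctional GART, ADSL, which also acts in AMP synthesis, and ATIC, which closes the ring, changed less. With palbociclib and the combination the log2 fold changes were -0.65 and -0.82 for GART, -0.67 and -0.78 for ADSL, and -0.93 and -0.98 for ATIC (SE 0.07 to 0.08, limma).

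From IMP onward the isoforms parted. IMPDH2, the rate-limiting dehydrogenase on the way to GMP, was the most abundant of all 33 genes, at 604 and 689 TPM in DMSO, 593 and 709 in TCP, 354 and 359.8 in palbociclib and 345 and 357 in the combination. The groups with palbociclib overlapped each other and stood well under the others. IMPDH2 fell, with log2 fold changes of -0.85 (SE 0.10, limma, adjusted p = 0.000959) and -0.88 (SE 0.10, adjusted p = 0.000557). Its isoform IMPDH1 was at 105 and 123 TPM in DMSO, 105 and 132 in TCP, 133 and 135 in palbociclib and 132 and 144 in the combination. Its log2 fold changes of 0.23 (SE 0.13, limma, adjusted p = 0.172) and 0.28 (SE 0.13, adjusted p = 0.105) did not pass the test. With quantile normalization IMPDH1 passed it with palbociclib (log2 fold change 0.36, adjusted p = 0.0453) and with the combination (0.43, adjusted p = 0.0224), and with median-ratio scaling with the combination (0.52, adjusted p = 0.0237). With the replicate block its combination value passed too (adjusted p = 0.0269), as it did without either TCP library (0.0418 and 0.0421).

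The ratio of IMPDH2 to IMPDH1 within a library, which no scaling between libraries can move, was 5.74 and 5.61 in DMSO, 5.66 and 5.37 in TCP, 2.66 and 2.67 in palbociclib and 2.61 and 2.48 in the combination. The ratio was thus lower in every library with palbociclib than in any without. GMPS, the last enzyme to GMP, fell, with log2 fold changes of -0.89 (SE 0.07, limma, adjusted p = 0.000246) and -1.09 (SE 0.07, adjusted p = 6.51e-05). It was DEG in the combination only, and the difference between combination and palbociclib of -0.20 (SE 0.07, adjusted p = 0.213) did not pass the test. ADSS, on the AMP branch, fell, with log2 fold changes of -0.44 and -0.46 (SE 0.09 each). Its call in the combination was lost with median-ratio scaling (-0.22, adjusted p = 0.083).

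The purine salvage enzymes also differed from each other. HPRT1, which recovers hypoxanthine and guanine, was at 163 and 151 TPM in DMSO, 165 and 156 in TCP, 90.1 and 83.6 in palbociclib and 68.8 and 67.0 in the combination. DMSO and TCP overlapped, palbociclib lay below both, and the combination lay below palbociclib. HPRT1 fell, with log2 fold changes of -0.85 (SE 0.08, limma, adjusted p = 0.000337) and -1.20 (SE 0.08, adjusted p = 5.9e-05). APRT, which recovers adenine, was at 348 and 424 TPM in DMSO, 366 and 492 in TCP, 412 and 428 in palbociclib and 407 and 469 in the combination. Its groups overlapped throughout, with log2 fold changes of 0.13 and 0.18 (SE 0.16, adjusted p = 0.54 and 0.367). Without DMSO replicate 1 its palbociclib value was -0.014. The ratio of HPRT1 to APRT ranged from 0.317 to 0.467 in the DMSO and TCP libraries and from 0.143 to 0.218 in the others.

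In the pyrimidine pathway all 4 genes fell with palbociclib and with the combination. CAD carries the first activities of the pathway, including its regulated step. It was at 63.1 and 78.8 TPM in DMSO, 60.6 and 78.3 in TCP, 29.0 and 29.1 in palbociclib and 25.7 and 25.0 in the combination. The replicates without palbociclib were spread more than those with it, and no value overlapped between them. CAD fell, with log2 fold changes of -1.25 (SE 0.15, limma, adjusted p = 0.000811) and -1.44 (SE 0.15, adjusted p = 0.000294). DHODH, the mitochondrial dehydrogenase that is a drug target in AML, had lower levels, at 23.0 and 24.9 TPM in DMSO, 21.1 and 25.5 in TCP, 17.0 and 13.1 in palbociclib and 12.9 and 12.8 in the combination. It fell, with log2 fold changes of -0.65 (SE 0.15, limma, adjusted p = 0.0108) and -0.85 (SE 0.15, adjusted p = 0.00268). UMPS, which completes UMP, fell, with log2 fold changes of -0.46 and -0.64 (SE 0.10 each).

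CTPS2, a CTP synthetase, was the least abundant member, at 9.97 and 9.35 TPM in DMSO, 9.59 and 6.87 in TCP, 6.52 and 4.96 in palbociclib and 5.32 and 4.09 in the combination. It fell, with log2 fold changes of -0.67 (SE 0.20, limma, adjusted p = 0.0292) and -0.91 (SE 0.20, adjusted p = 0.00739). Without palbociclib replicate 2 the palbociclib values of DHODH, UMPS and CTPS2 were -0.47, -0.37 and -0.50 and did not pass (adjusted p = 0.0627, 0.0784 and 0.159). The call of UMPS with palbociclib was also lost with quantile normalization (-0.31, adjusted p = 0.0656) and that of CTPS2 with no filter on low values (-0.67, adjusted p = 0.0631), and both with median-ratio scaling (adjusted p = 0.0687 and 0.0579).

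Among the nucleoside kinases of salvage, the cytosolic and mitochondrial thymidine kinases moved in opposite directions. TK1, the S phase enzyme, was at 161 and 180.0 TPM in DMSO, 149 and 197 in TCP, 113 and 111 in palbociclib and 63.9 and 79.7 in the combination. The combination values lay under the palbociclib values, which lay under all others. TK1 fell, with log2 fold changes of -0.60 (SE 0.15, limma, adjusted p = 0.0175) and -1.25 (SE 0.15, adjusted p = 0.000667). Its palbociclib call was lost without palbociclib replicate 2 (-0.59, adjusted p = 0.0794) and with median-ratio scaling (-0.43, adjusted p = 0.0904). TK2, the mitochondrial enzyme, was at 13.3 and 12.1 TPM in DMSO, 13.0 and 12.6 in TCP, 23.8 and 24.6 in palbociclib and 27.4 and 28.4 in the combination. All libraries with palbociclib exceeded all others, and TK2 rose, with log2 fold changes of 0.88 (SE 0.09, limma, adjusted p = 0.00049) and 1.08 (SE 0.09, adjusted p = 0.000133).

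The ratio of TK1 to TK2 within a library was 12.1 and 14.9 in DMSO, 11.5 and 15.7 in TCP, 4.74 and 4.52 in palbociclib and 2.33 and 2.80 in the combination. DCK phosphorylates deoxycytidine and is known as the kinase that activates cytarabine. It was at 94.4 and 98.6 TPM in DMSO, 87.4 and 91.0 in TCP, 61.9 and 55.4 in palbociclib and 49.9 and 48.9 in the combination. Its groups lay in that order without overlap, and it fell, with log2 fold changes of -0.71 (SE 0.08, limma, adjusted p = 0.000693) and -0.95 (SE 0.08, adjusted p = 0.000141). UCK2, the uridine-cytidine kinase, fell, with log2 fold changes of -0.70 and -0.86 (SE 0.07 each).

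Ribonucleotide reductase pairs the large subunit RRM1 with a small subunit, RRM2 in S phase or RRM2B, the p53-inducible form. RRM1 was at 107 and 132 TPM in DMSO, 101 and 124 in TCP, 66.6 and 71.9 in palbociclib and 43.4 and 50.2 in the combination. RRM1 fell, with log2 fold changes of -0.77 (SE 0.14, limma, adjusted p = 0.00489) and -1.33 (SE 0.14, adjusted p = 0.000364). RRM2 (GRCh37, chr2:10260825-10351851) was at 202 and 236 TPM in DMSO, 182 and 223 in TCP, 107 and 113 in palbociclib and 67.6 and 75.0 in the combination. Both subunits were lowest in the combination with no overlap with palbociclib, and RRM2 fell, with log2 fold changes of -0.98 (SE 0.12, limma, adjusted p = 0.00109) and -1.60 (SE 0.12, adjusted p = 0.000108). RRM2B was at 54.7 and 49.0 TPM in DMSO, 57.2 and 43.9 in TCP, 64.9 and 55.0 in palbociclib and 59.7 and 58.8 in the combination. Its log2 fold changes were 0.20 (SE 0.14, adjusted p = 0.278) and 0.19 (SE 0.14, adjusted p = 0.293).

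RRM2B passed the test with median-ratio scaling, at 0.38 with palbociclib (limma, adjusted p = 0.0488) and 0.43 with the combination (adjusted p = 0.0266), and with quantile normalization in the combination (0.39, adjusted p = 0.0461). The ratio of RRM2 to RRM2B was 3.69 and 4.82 in DMSO, 3.18 and 5.07 in TCP, 1.65 and 2.06 in palbociclib and 1.13 and 1.28 in the combination. Per length, RRM2 was thus 1.13 and 1.28 times RRM2B in the combination. The ratio of RRM2 to RRM1 was between 1.49 and 1.89 in all 8 libraries.

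**Figure D4:**
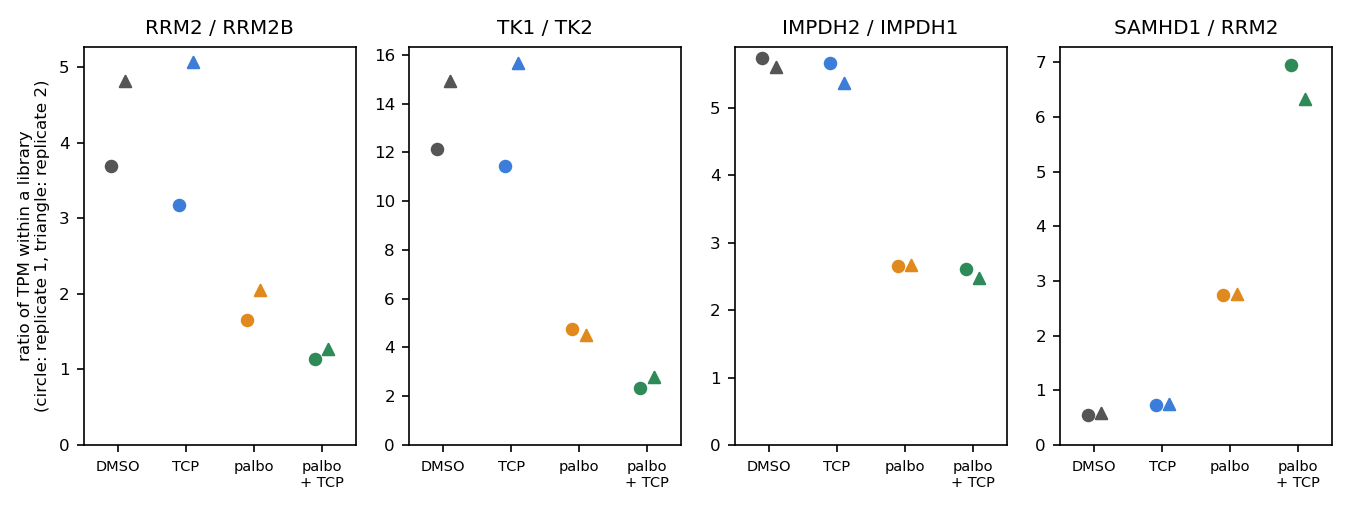
Ratio of the TPM of 2 genes within each library, on linear axes from 0, for RRM2 to RRM2B, TK1 to TK2, IMPDH2 to IMPDH1 and SAMHD1 to RRM2; circles are replicate 1 and triangles replicate 2. The first 3 ratios are lower in every palbociclib and combination library than in the DMSO and TCP libraries, and the last is higher, reaching 6.96 and 6.33 in the combination.

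The enzymes of thymidylate and dUTP included the largest decreases with the combination. TYMS, thymidylate synthase and the target of fluorouracil, was at 317 and 359.6 TPM in DMSO, 306 and 359 in TCP, 151 and 148 in palbociclib and 113 and 105 in the combination. The libraries with palbociclib were under all others, and those of the combination under those of palbociclib. TYMS fell, with log2 fold changes of -1.17 (SE 0.10, limma, adjusted p = 0.000299) and -1.63 (SE 0.10, adjusted p = 5.4e-05). TYMS is overlapped by the antisense gene ENOSF1, and since the strand setting of the counting was not stated, reads of the overlap could have been counted for either. DUT (GRCh37, chr15:48623208-48635570), the dUTPase that keeps uracil out of DNA, was at 220.4 and 227 TPM in DMSO, 198 and 193 in TCP, 123 and 98.8 in palbociclib and 64.8 and 71.1 in the combination. The 4 groups did not overlap. DUT fell, with log2 fold changes of -1.01 (SE 0.11, limma, adjusted p = 0.000644) and -1.71 (SE 0.11, adjusted p = 6.14e-05), to 49.7% and 30.4% of the DMSO mean. The E2F matches of the TYMS and DUT upstream sequences are those in capitals above.

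DTYMK, the thymidylate kinase, fell, with log2 fold changes of -0.79 (SE 0.20, limma, adjusted p = 0.0158) and -1.03 (SE 0.20, adjusted p = 0.00447). Its palbociclib value was -0.72 without palbociclib replicate 2 (adjusted p = 0.0859) and -0.62 with median-ratio scaling (adjusted p = 0.0581), short of the test in both. DCTD, which deaminates dCMP, changed least of the 27 that fell. It was at 112 and 99.7 TPM in DMSO, 112 and 105 in TCP, 89.9 and 83.2 in palbociclib and 87.9 and 87.2 in the combination. Its decreases of 0.29 (SE 0.09, limma, adjusted p = 0.032) and 0.27 (SE 0.09, adjusted p = 0.0339) were near the shift of the median gene. They no longer passed with quantile normalization (-0.17, adjusted p = 0.171, and -0.085, adjusted p = 0.458).

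Of the kinases that make di- and triphosphates, CMPK1 (UMP and CMP) was at 249.6 and 240.5 TPM in DMSO, 276 and 253 in TCP, 198 and 171 in palbociclib and 182 and 172 in the combination. CMPK1 fell, with log2 fold changes of -0.41 (SE 0.09, limma, adjusted p = 0.00997) and -0.46 (SE 0.09, adjusted p = 0.00491). With median-ratio scaling neither value passed (-0.24, adjusted p = 0.0539, and -0.22, adjusted p = 0.0607), nor did the palbociclib value without palbociclib replicate 2 (-0.31, adjusted p = 0.0621). NME1, a nucleoside diphosphate kinase, was at 218 and 249 TPM in DMSO, 235 and 296 in TCP, 116 and 112 in palbociclib and 99.1 and 99.5 in the combination. NME1 fell, with log2 fold changes of -1.02 (SE 0.12, limma, adjusted p = 0.000813) and -1.22 (SE 0.12, adjusted p = 0.000259). NME1 adjoins its close copy NME2, and reads shared between them could have been split in the counting. NME2 fell, with log2 fold changes of -0.30 (SE 0.08, limma, adjusted p = 0.0241) and -0.34 (SE 0.08, adjusted p = 0.0114), neither of which passed with median-ratio scaling (-0.12 and -0.097) or without either DMSO library (adjusted p = 0.0509 to 0.0953).

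The breakdown side moved the other way in SAMHD1 (GRCh37, chr20:35518632-35580296), which hydrolyses deoxynucleoside triphosphates and is known to lower the effect of cytarabine. It was at 109 and 136 TPM in DMSO, 135 and 167 in TCP, 295 and 313 in palbociclib and 471 and 475 in the combination. TCP and DMSO overlapped, and palbociclib and the combination stood above them in 2 separate steps. SAMHD1 rose, with log2 fold changes of 1.31 (SE 0.13, limma, adjusted p = 0.000516) with palbociclib and 1.94 (SE 0.13, adjusted p = 7.18e-05) with the combination, to 247% and 385% of the DMSO mean. The ratio of SAMHD1 to RRM2 within a library was 0.541 and 0.578 in DMSO, 0.741 and 0.751 in TCP, 2.75 and 2.77 in palbociclib and 6.96 and 6.33 in the combination. The ratio of DCK to SAMHD1 was 0.863 and 0.723 in DMSO, 0.650 and 0.544 in TCP, 0.210 and 0.177 in palbociclib and 0.106 and 0.103 in the combination. NT5C2, which removes phosphate from IMP and related nucleotides, was at 154 and 153 TPM in palbociclib and 133 and 133 in the combination. Its log2 fold changes against DMSO were 0.12 and -0.085 (SE 0.08, limma, adjusted p = 0.243 and 0.394), and the latter was 0.050 with quantile normalization and 0.16 with median-ratio scaling. The palbociclib value of NT5C2 under these scalings is not given here. With median-ratio scaling 4 members were called higher with palbociclib, against 2 in the main fit, so members that did not pass above may pass there. Among all 14151 genes tested, 2960 were called higher with that scaling, against 2090 in the main fit.

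What TCP added to palbociclib was read from the combination against palbociclib. In limma 2 members passed the test, both lower, RRM2 by 0.62 (SE 0.12, adjusted p = 0.0474) and DUT by 0.69 (SE 0.11, adjusted p = 0.0254). By that rule 1.44% of all genes fell and 2.05% rose. No member was DEG, where 0.0424% and 0.459% of all genes were lower and higher. Over the members 28 of 33 had a log2 fold change below 0, as did 65.4% of all genes, with a median of -0.20 against -0.073 for all genes. An unadjusted p under 0.05 was reached by 12 members and by 17.5% of all genes. TK1 at -0.64 (SE 0.15, adjusted p = 0.0791), RRM1 at -0.56 (SE 0.14, adjusted p = 0.0932), TYMS at -0.46 (SE 0.10, adjusted p = 0.0638), HPRT1 at -0.35 (SE 0.08, adjusted p = 0.0627) and SAMHD1 at 0.64 (SE 0.13, adjusted p = 0.0553) did not pass after adjustment. TK1 and SAMHD1 were larger in size than RRM2 but had larger standard errors.

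With the replicate number as a block, a pairing read from the values of all genes, 8 members passed in this comparison, while the share of all genes called rose from 3.49% to 8.87%. PPAT (limma, adjusted p = 0.0403), HPRT1 (0.0171), TK1 (0.0195), RRM1 (0.00964), RRM2 (0.00725), TYMS (0.0352) and DUT (0.0176) fell, and SAMHD1 (0.0142) rose. In the fit with no block, neither RRM2 nor DUT passed without DMSO replicate 1 (adjusted p = 0.0671 and 0.0555), DMSO replicate 2 (0.0674 and 0.0551), palbociclib replicate 1 (0.202 and 0.11), combination replicate 1 (0.268 and 0.173) or combination replicate 2 (0.179 and 0.125), and RRM2 also failed without palbociclib replicate 2 (0.189). Their log2 fold changes stayed between -0.70 and -0.55 for RRM2 and between -0.85 and -0.54 for DUT in those fits.

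**Figure D5:**
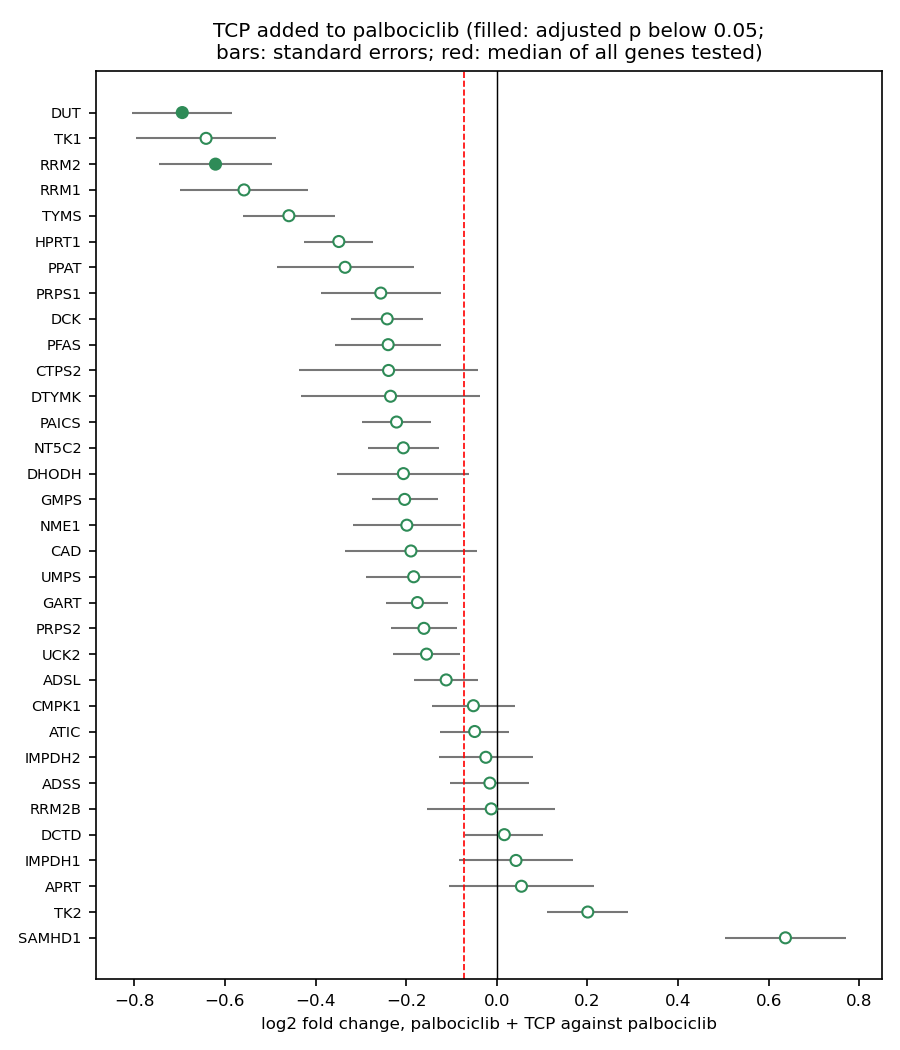
Log2 fold change of each of the 33 genes in the combination against palbociclib alone, from limma on log2(TPM + 1), sorted by value with standard errors as bars; filled points (DUT and RRM2) had an adjusted p below 0.05 and the dashed red line is the median of all genes, at -0.073. DUT, TK1, RRM2, RRM1 and TYMS lie at the low end and SAMHD1 at the high end.

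Against TCP alone, 27 members fell with the combination and 3 rose (limma), where 33.8% of all genes fell and 16.5% rose. The median was -0.88 against -0.18 for all genes. By the stricter rule 12 members were lower and 2 higher, where 6.7% and 5.46% of all genes were. The 3 that rose were TK2 by 1.07 (SE 0.09, adjusted p = 0.000163), SAMHD1 by 1.65 (SE 0.13, adjusted p = 0.000149) and NT5C2 by 0.22 (SE 0.08, adjusted p = 0.0487). NT5C2 was called at the edge of the threshold, and its call was lost on leaving out any library other than TCP replicate 1 (adjusted p = 0.0763 to 0.17). CTPS2 and DCTD did not pass without TCP replicate 1 (0.109 and 0.0821) or combination replicate 2 (0.135 and 0.101), nor DCTD without combination replicate 1 (0.0865).

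Whether the effect of the 2 molecules together differed from the sum of their single effects was tested as an interaction. It called 0 members and 0% of all genes in either direction (limma). At an unadjusted p under 0.05 it held 5 members, HPRT1 (-0.38, SE 0.11), TK1 (-0.65, SE 0.22), RRM2 (-0.50, SE 0.18), TYMS (-0.43, SE 0.14) and DUT (-0.50, SE 0.16), and 904 genes in all. Below 0 were 29 of the 33 members and 55.7% of all genes, with a median of -0.14 against -0.027 for all genes. These 5 genes had adjusted p of 0.551 to 0.694, so a departure from the sum of the effects was not shown for any member.

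Genes of S phase, G2 and M phase moved with the members. A list of 25 of them summed to 3783 and 4345 TPM in DMSO, 3463 and 4236 in TCP, 1959 and 1916 in palbociclib and 1372 and 1495 in the combination. With palbociclib 23 of 25 fell (median -1.16), and with the combination 24 (median -1.65), where 30.2% and 37.6% of all genes fell. CCNE1 passed in neither (0.091 and -0.29, limma, adjusted p = 0.718 and 0.23). CCNE2 did not pass with palbociclib (0.12, adjusted p = 0.303). Of 7 genes of mature myeloid cells, 6 rose with palbociclib, the exception being ITGAM (0.089, limma, adjusted p = 0.833), and 6 with the combination, the exception being FCGR1A (0.41, adjusted p = 0.0513). Among all genes 14.8% and 15.9% rose. With TCP alone S100A9 rose and the other 6 did not pass. Their sum, most of it LYZ, was 391 and 874 TPM in DMSO, 880.5 and 1878 in TCP, 19360 and 21531 in palbociclib and 38938 and 38280 in the combination. The part of either shift in the members' values was not tested, and in bulk RNA fewer cycling cells and less RNA per cell cannot be told apart.

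Of 58 other genes of nucleotide metabolism, 50 passed the filter on low values. With palbociclib 18 of the 50 fell and 9 rose (median -0.32), and with the combination 24 fell and 10 rose (median -0.38), beside the shares of all genes given above (30.2% and 14.8%, then 37.6% and 15.9%). With TCP alone 1 rose, TYMP, and none fell. CTPS1, the other CTP synthetase, fell, with log2 fold changes of -0.71 and -0.76 (SE 0.11 each), and ADK, adenosine kinase, with -0.83 and -0.87 (SE 0.13 each). GUK1, guanylate kinase, did not pass the test in either (-0.031 and 0.15, SE 0.08).

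TYMP, CDA, PNP and ADA, enzymes that break down or deaminate nucleosides, rose with palbociclib and with the combination. Other breakdown and deaminase genes of the list went both ways. CECR1 (2.48 and 4.26) and AMPD3 (0.68 and 2.23) also rose in both. DPYD rose with the combination (1.15) and did not pass with palbociclib (0.56). UPB1, NT5C and NT5C3A fell in both. The log2 fold changes were -1.62 and -1.28 for UPB1, -0.74 and -0.74 for NT5C, and -0.73 and -1.07 for NT5C3A. TYMP, thymidine phosphorylase, was at 151 and 139 TPM in DMSO, 220.3 and 223 in TCP, 483 and 513 in palbociclib and 651 and 714 in the combination. The 4 groups were ordered without overlap, and TYMP rose by 0.61 (SE 0.08, limma, adjusted p = 0.0356) with TCP, by 1.77 (adjusted p = 3.94e-05) with palbociclib and by 2.22 (adjusted p = 1.16e-05) with the combination. The TYMP call with TCP was lost in a fit of only the TCP and DMSO libraries (adjusted p = 0.312), with no filter (0.0721), with no trend (0.0771) and on leaving out any of the 8 libraries (0.0909 to 0.259). CDA, cytidine deaminase, was at 0.127 and 0.399 TPM in DMSO, 0.267 and 1.06 in TCP, 4.40 and 4.35 in palbociclib and 9.30 and 9.67 in the combination. CDA rose by 2.10 and 3.06 (SE 0.25 each) on the log2 scale with 1 added to each TPM, and for a gene this low that scale shrinks the change. PNP, purine nucleoside phosphorylase, rose by 0.88 and 0.51 (SE 0.16 each), and ADA, adenosine deaminase, by 0.71 and 0.47 (SE 0.13 each). With the combination the PNP call was lost without either DMSO library or combination replicate 2, and with no filter (adjusted p = 0.0533 to 0.187), and the ADA call without DMSO replicate 2 or either combination library (0.0627 to 0.0954).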

How the data were processed

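RNA of 8 MV4-11 libraries was sequenced from a stranded mRNA kit. Per the study's methods and the submitters' processing notes, the authors aligned reads with Subread to GRCh37 and counted them with featureCounts 1.6.4 (SAMtools 1.9 and DESeq2 1.26.0 are also listed). The deposited table holds TPM per gene symbol, summing to 1000000 in each library. TPM keep no depth, so no counting interval is given. The annotation and strand setting are not given in the sources used here.

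Genes that reached 1 TPM in 2 or more libraries were kept. Their TPM plus 1, on a log2 scale, were fitted with limma 3.58.1 (R 4.3.3, mean-variance trend, 1 mean per group, all 8 libraries, 4 residual degrees of freedom). Tests were two-sided with Benjamini-Hochberg adjustment over all genes tested. An exact permutation test of 2 against 2 libraries could not go below p = 0.333. Groups came from the labels. The members and lists were chosen with earlier results of these data known. All members are reported, with full statistics for those called, and of the other pathway genes those named in the design, except an item that is not reported here. The code was tested on simulated data.

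Libraries that share a number deviated from the means of their groups together, with correlations over genes of 0.169 to 0.491 for the 6 pairs of groups. The replicate numbers were therefore taken as pairs in the replicate block, an alternative fit, while the main fit did not use them. The pairing rests on the values alone. Alternatives were a pseudocount of 0.1, no filter, a filter at a mean of 5 TPM, quantile normalization, median-ratio scaling, the replicate block, only the groups compared, no trend, the DEG rule and each library left out.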

Additional observations from a re-analysis of the deposited data

How the results depend on the processing

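In the comparisons of palbociclib and the combination with DMSO and of the combination with TCP, more members fell than rose under every alternative run. With quantile normalization the members' median was -0.59 for palbociclib, -0.78 for the combination, -0.13 for the combination against palbociclib and -0.73 for the combination against TCP. With median-ratio scaling these were -0.54, -0.70, -0.13 and -0.68. Leaving out each library moved the median from -0.095 to 0.027 for TCP, from -0.79 to -0.63 for palbociclib and from -0.20 to -0.070 for the interaction. The count of members called with palbociclib was 29 as reported, where 45% of all genes were called. It was 28 with quantile normalization (42.3% of all genes) and 25 with median-ratio scaling (40.4%). By the DEG rule it was 8, where 4.56% of all genes were lower and 4.54% higher. With a library of DMSO, palbociclib or the combination left out, fewer members and a smaller share of all genes passed. For the combination the DEG rule called 15 of 29, and for the combination against TCP 14 of 30. For the combination against palbociclib the DEG rule called 0. The main rule called 1 member at a pseudocount of 0.1 (2.98% of all genes), with no filter (1.66%), with median-ratio scaling (3.23%) or with no trend (2.78%). It called 8 with the replicate block (8.87%), and 2 lower and 1 higher with a mean of at least 5 TPM (4.12%). In a fit of only the groups compared 1 was lower and 1 higher (1.9%). Leaving out a library moved the count in either direction. The block also called IMPDH1 in the combination against DMSO (adjusted p = 0.0269, limma). Apart from that and the combination against palbociclib, it left the counts of members called unchanged. APRT with palbociclib ranged from -0.014 to 0.27 over the libraries left out. NT5C2 in the combination was 0.050 with quantile normalization and 0.16 with median-ratio scaling. No depth was given, so the precision of low genes such as CTPS2 rests on the spread of replicates alone.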

Other observations

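Among the other genes of nucleotide metabolism, 3 were picked after their values were seen and are given as values. CECR1, now named ADA2, encodes a secreted adenosine deaminase of myeloid cells. It was at 11.0 and 7.83 TPM in DMSO, 21.5 and 15.2 in TCP, 55.9 and 57.2 in palbociclib and 189.8 and 201 in the combination. It rose with the combination against palbociclib, with a log2 fold change of 1.77 (SE 0.19, limma, adjusted p = 0.00729). AMPD3, an AMP deaminase, also rose in that comparison, with a log2 fold change of 1.55 (SE 0.19, limma, adjusted p = 0.0104). Neither CECR1 nor AMPD3 passed without palbociclib replicate 1 or either combination library (adjusted p = 0.0658 to 0.111). SLC29A1, the transporter through which cells take up nucleosides and cytarabine, was at 106 and 125 TPM in DMSO, 97.4 and 137 in TCP, 63.4 and 65.7 in palbociclib and 46.9 and 52.5 in the combination. SLC29A1 fell in both comparisons with DMSO, with log2 fold changes of -0.83 (SE 0.16, limma, adjusted p = 0.00636) and -1.20 (SE 0.16, adjusted p = 0.000994).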
